A study of Mus musculus with 4 samples.

Results

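The 8 genes described here encode transcription factors that pattern the hypothalamus and the adjoining basal forebrain of the embryo. They are the NK2 homeodomain factors Nkx2-1, Nkx2-2, Nkx2-4 and Nkx2-9, the homeodomain factors Rax and Otp, the basic helix-loop-helix factor Sim1 and the forkhead factor Foxb1. All 8 were found by symbol among the 33708 autosomal genes of the expression table. They were picked with the difference between the MD43 and WT columns of this table already known, so that difference is given as a description and was not tested. The table was made by sequencing RNA of the frontonasal prominence (FNP), the part of the embryonic face that forms the nose and snout, of 4 FVB/NJ mouse embryos at E10.5, all with 29 somites. There were 2 wild-type embryos (Smchd1+/+, hereafter WT), labelled female for replicate 1 and male for replicate 2. The other 2 embryos, both labelled male, were homozygous for MommeD43 (Smchd1MommeD43/MommeD43, hereafter MD43), an allele that arose by chemical mutagenesis with ENU and changes 1 amino acid in the extended ATPase domain of the chromatin repressor SMCHD1. Each library came from 1 embryo and was a stranded, poly(A)-selected library made from 100 ng of RNA. By their label numbers, WT replicate 2 and MD43 replicate 2 shared a mother and the other embryos had different mothers. A heading in the study's supplement lists WT replicate 2 as female, and the sexes were not checked here since genes on X and Y were not analysed here.

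The hypothalamus forms from the ventral part of the rostral forebrain, under the influence of Sonic hedgehog from the axial mesoderm beneath it and from the ventral midline itself. Its precursor domains are laid out by homeodomain, bHLH and forkhead factors that are expressed in bands and patches before the neurons are born. Some of these factors act over the whole territory, such as Rax and Nkx2-1. Others act in restricted parts, such as Otp and Sim1 in neuroendocrine neurons, including those of the paraventricular nucleus, and Foxb1 in the mammillary body. The FNP lies against the ventral forebrain, and a dissected FNP can carry forebrain tissue with it.

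Expression is given in RPKM, the density of reads corrected for the size of the library and of the transcript. The table holds 1 value for each genotype, merged by the authors from the 2 libraries, so no value has a spread between embryos and no difference between genotypes could be set against one. Read numbers were recovered from the values, and the reads of a gene in a genotype are the geometric mean over its 2 libraries. The intervals are 95% intervals for read counting alone. They leave out the variation between embryos, and they are the narrowest that the reads allow. Library depth was also recovered from the values, as the total that scales them, and not taken from reported read totals. As a geometric mean per library it was about 22328800 reads in MD43 and 16055900 reads in WT, a ratio of 1.39. Because the samples are bulk tissue, fewer cells of a type and less RNA per cell cannot be told apart.

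Each of the 8 genes had a lower value in MD43 than in WT. The smallest difference was 1.36-fold for Nkx2-1, from the listed values. The largest was 82.1-fold for Foxb1, from summed reads scaled to depth, with a sum of 2 reads in MD43. Nkx2-1 was the one member with a sizeable level in the FNP, at 13.9 RPKM in WT and 10.2 RPKM in MD43. The other 7 members lay between 0.153 and 1.53 RPKM in WT and between 0.0201 and 0.752 RPKM in MD43. Summed over the 8 genes, the level was 19.9 RPKM in WT and 11.7 RPKM in MD43, and most of both sums was Nkx2-1.

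**Figure D1:**
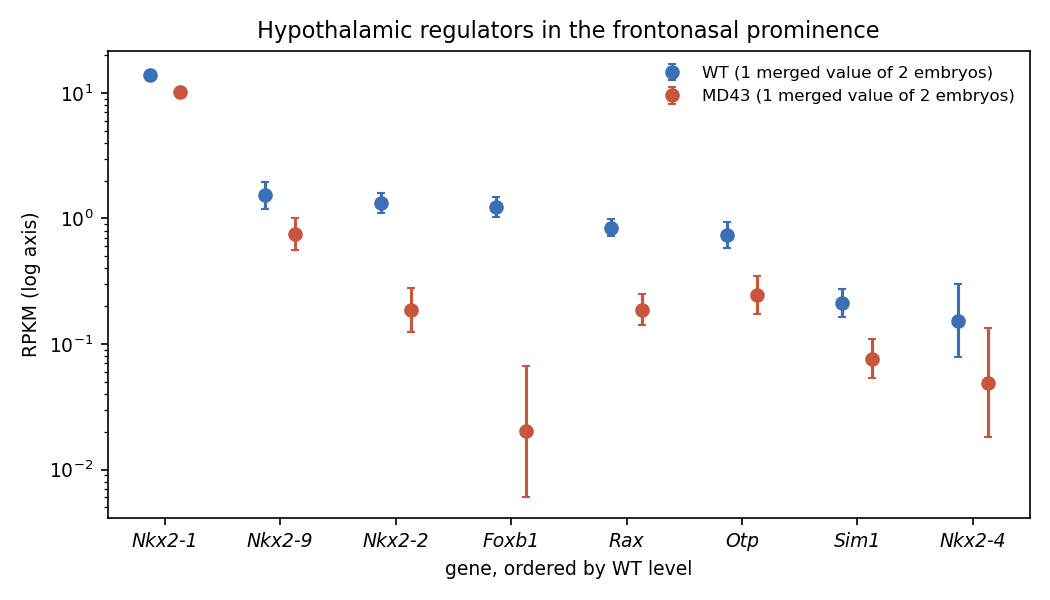
Level of each gene in RPKM (log axis) in WT (blue) and MD43 (red), ordered by WT level. Each point is 1 value merged from 2 embryos and each bar is the 95% interval of read counting alone. Every WT point lies above the MD43 point of the same gene, and the bars of the 2 genotypes overlap for Nkx2-4 alone.

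In WT the order of the levels was Nkx2-1, then Nkx2-9, Nkx2-2 and Foxb1, then Rax and Otp, then Sim1 and Nkx2-4. The neighbours within each of these groups were not separated by their counting intervals, whereas the last gene of each group and the first gene of the next were. In MD43 the order was Nkx2-1, then Nkx2-9, then Otp, Rax and Nkx2-2, then Sim1, Nkx2-4 and Foxb1. Foxb1 was thus among the upper 4 of the 8 genes in WT and, with Sim1 and Nkx2-4, in the lowest group in MD43, where Nkx2-4 and Foxb1 each had a library with 0 reads.

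A further feature that the choice of members did not use is the sequence before their start sites. RefSeq promoter sequences (GRCm38.p6) were found for 6 of the 8 genes, the exceptions being Rax and Foxb1. In the 250 bases before the start, these 6 held 8 to 33 CG dinucleotides, against a median of 6 over 32851 mouse promoters, of which 43.0% held at least 8. These 250 bases include bases that GENCODE annotates as exon, 178 for Sim1, 100 for Nkx2-4, 53 for Nkx2-2 and 34 for Otp. Their GC content ranged from 45.6% to 70.4%, and the median over all promoters was 52.4%. The sequences of 4 members are shown 5′ to 3′ on the strand of the gene, with CG dinucleotides in capitals, because they cover the member with the highest level (Nkx2-1), the neighbouring member of the same family (Nkx2-9), a factor of the neuroendocrine nuclei (Otp) and the NK2 member with the widest gap between genotypes (Nkx2-2). The stretches lie at chr12:56536909-56537158 on the minus strand for Nkx2-1, chr12:56613285-56613534 on the minus strand for Nkx2-9, chr13:94875386-94875601 on the plus strand for Otp and chr2:147186456-147186652 on the minus strand for Nkx2-2, where bases that GENCODE annotates as exon were left out. The Nkx2-2 stretch lies in an intron of a longer GENCODE transcript.
Nkx2-1: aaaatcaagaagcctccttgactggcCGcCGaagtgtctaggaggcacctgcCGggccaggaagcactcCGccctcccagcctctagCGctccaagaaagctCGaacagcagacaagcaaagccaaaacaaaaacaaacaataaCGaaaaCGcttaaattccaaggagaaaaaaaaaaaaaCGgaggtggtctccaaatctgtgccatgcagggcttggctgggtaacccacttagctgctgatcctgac
Nkx2-9: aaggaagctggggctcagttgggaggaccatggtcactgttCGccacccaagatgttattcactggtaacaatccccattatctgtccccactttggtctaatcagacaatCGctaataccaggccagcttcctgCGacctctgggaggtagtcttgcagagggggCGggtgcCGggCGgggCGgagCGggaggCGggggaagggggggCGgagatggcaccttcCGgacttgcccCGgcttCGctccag
Otp: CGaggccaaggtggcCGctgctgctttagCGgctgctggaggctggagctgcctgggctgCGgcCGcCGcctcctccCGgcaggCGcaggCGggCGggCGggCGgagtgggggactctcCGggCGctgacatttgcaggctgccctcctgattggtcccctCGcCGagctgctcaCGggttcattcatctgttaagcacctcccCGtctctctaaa
Nkx2-2: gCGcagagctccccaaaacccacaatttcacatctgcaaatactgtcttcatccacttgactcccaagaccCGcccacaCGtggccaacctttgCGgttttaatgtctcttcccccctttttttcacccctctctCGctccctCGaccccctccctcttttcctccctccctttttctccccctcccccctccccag

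These 4 stretches held 9, 13, 18 and 6 CG dinucleotides. The letters of a few motifs were then searched on both strands of the 250 bases of the 6 promoters. The GC box (GGGCGG) was present in 5 of them, all but Sim1, and in 32.7% of all promoters. The CCAAT box (CCAAT) was found in Otp alone, against 33.8% of all promoters, and the TATA box (TATAAA) in Sim1 alone, against 12.4%. The TATAAA match of Sim1 does not lie within the 72 bases of its window that are not annotated as exon. The letters CAAGTG, a core bound by NK2 factors, were present in Nkx2-2 alone and in 11.6% of all promoters, and the E-box CACGTG in Nkx2-2 alone and in 6.02%. The homeodomain core TAATTA and the GLI site GACCACCCA were in none of the 6, against 4.84% and 0.225% of all promoters. Such matches describe these letters in this window and are not binding sites.

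Nkx2-1 (ENSMUSG00000001496, GRCm38 chr12:56531958-56536908, minus strand) is needed for the ventral hypothalamus and for the thyroid and lung. MD43 gave 647 reads and WT 635, which after scaling to depth gave a log2 difference (MD43 minus WT) of -0.45 (95% counting interval -0.56 to -0.34), or 1.36-fold lower. It was the member with the smallest difference and the narrowest interval. Nkx2-9 (ENSMUSG00000058669, chr12:56611389-56613284, minus strand), a factor of the ventral neural tube, lies 74481 bp from Nkx2-1 on the same strand. It was at 0.752 RPKM in MD43 and 1.53 RPKM in WT, from 21.2 and 31.0 reads, 2.03-fold lower in MD43 (log2 -1.02, interval -1.59 to -0.46). The counting intervals of the 2 genes overlap between -0.56 and -0.46.

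Nkx2-2 and Nkx2-4 form another pair of NK2 genes on 1 strand, 92101 bp apart. Nkx2-2 (ENSMUSG00000027434, chr2:147177546-147194243, minus strand) marks the ventral neural tube next to the floor plate and a stripe along the boundary of the basal and alar forebrain. It was at 0.186 RPKM in MD43 and 1.33 RPKM in WT, from 12 and 61.2 reads, 7.12-fold lower in MD43 (log2 -2.83, interval -3.46 to -2.20). It had the widest gap of the 4 NK2 members. Nkx2-4 (ENSMUSG00000054160, chr2:147083316-147085445, minus strand), the closest relative of Nkx2-1, was near the detection limit. It was listed at 0.0493 RPKM in MD43 and 0.153 RPKM in WT, with 0 and 4 reads in the MD43 libraries and a total of at least 9 reads in WT. With the smallest WT sum it was 3.13-fold lower in MD43, with an exact 95% interval of 0.873 to 13.9 that includes equality. The WT reads may instead have summed to 11, 19 or 20, which would give a larger fold. No exact interval was computed for those sums, so whether Nkx2-4 differed is not settled at this depth.

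Rax (ENSMUSG00000024518, chr18:65928277-65939787, minus strand) specifies the eye field and the hypothalamic primordium. It was at 0.188 RPKM in MD43 and 0.846 RPKM in WT, from 24.5 and 79.4 reads. Rax was 4.51-fold lower in MD43 (log2 -2.17, interval -2.63 to -1.71). An antisense gene, Raxos1, covers part of its exons and can share its reads, as described with the neighbours of the members.

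Otp and Sim1 are both required for the neurons that make oxytocin, vasopressin and other hypothalamic hormones, and their values were similar in size and direction. Otp (ENSMUSG00000021685, chr13:94875602-94885130, plus strand) was at 0.247 RPKM in MD43 and 0.734 RPKM in WT, from 15.9 and 33.9 reads, 2.97-fold lower in MD43 (log2 -1.57, interval -2.18 to -0.96). Sim1 (ENSMUSG00000019913, chr10:50894754-50989152, plus strand) was at 0.0763 RPKM in MD43 and 0.212 RPKM in WT, from 14.7 and 29.4 reads, 2.78-fold lower in MD43 (log2 -1.48, interval -2.11 to -0.84). The intervals of both genes cover the value of the other.

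Foxb1 (ENSMUSG00000059246, chr9:69757710-69760940, minus strand), a forkhead factor of the mammillary region and the early caudal neural tube, had the widest gap of all members. It was listed at 0.0201 RPKM in MD43 and 1.23 RPKM in WT. The MD43 libraries held 0 and 2 reads, and the WT libraries held a sum of 118 reads or more. With these sums scaled to depth, Foxb1 was 82.1-fold lower in MD43, with an exact 95% counting interval of 22.2 to 685. The listed log2 difference of -5.93 rests on the 0.9 reads that stand for 0 in the table and is no bound.

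For low products of reads the counts of the 2 libraries can be separated in part, because only a few whole numbers give the product. The counts cannot be assigned to an embryo. Pairs that differ by up to 4-fold were considered, and every pair where the product was under 100, and wider pairs of larger products were left out. In MD43 the reads of Nkx2-2 were 11 and 13 by the single pair left, and in WT they were between 52 and 72 at the closest and 32 and 117 at the widest. Both MD43 libraries were therefore low, and the WT libraries lay above them in each of 5 pairs. For Rax the MD43 pairs were 24 and 25, 20 and 30 or 15 and 40, and the 7 WT pairs ran from 75 and 84 to 42 and 150. For Foxb1 the WT pairs were 54 and 64, 48 and 72, 36 and 96 or 32 and 108.

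For these 3 genes both MD43 libraries lay below both WT libraries, scaled to depth, in every combination of pairs and of library depths tried, that is in 45 of 45 combinations for Nkx2-2, 189 of 189 for Rax and 36 of 36 for Foxb1. Over the 6425 genes with such products, this was so for 0.918%, and the reverse order, with both MD43 libraries above both WT libraries, for 0.498%. The pairs come from the same values on which the members were picked, so nothing is read from the comparison with these shares. The other members overlapped in some combinations. Otp had MD43 pairs of 14 and 18, 12 and 21 or 9 and 28 and WT pairs of 32 and 36, 24 and 48 or 18 and 64, and the genotypes were apart in 70 of 81 combinations. Sim1 had MD43 pairs of 12 and 18, 9 and 24 or 8 and 27 and WT pairs of 27 and 32, 24 and 36, 18 and 48 or 16 and 54, with the genotypes apart in 81 of 108. Nkx2-9, with 26 and 37 reads in WT and either 18 and 25 or 15 and 30 in MD43, was apart in 15 of 18. Nkx2-4 was apart in 7 of 36, since its WT reads may have been 3 and 6, 2 and 9, 1 and 18 or 0 and 20. Nkx2-1 was apart in 2 of 18, on pairs that are less certain because its products lie above the limit of 100000 set for the other genes.

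**Figure D2:**
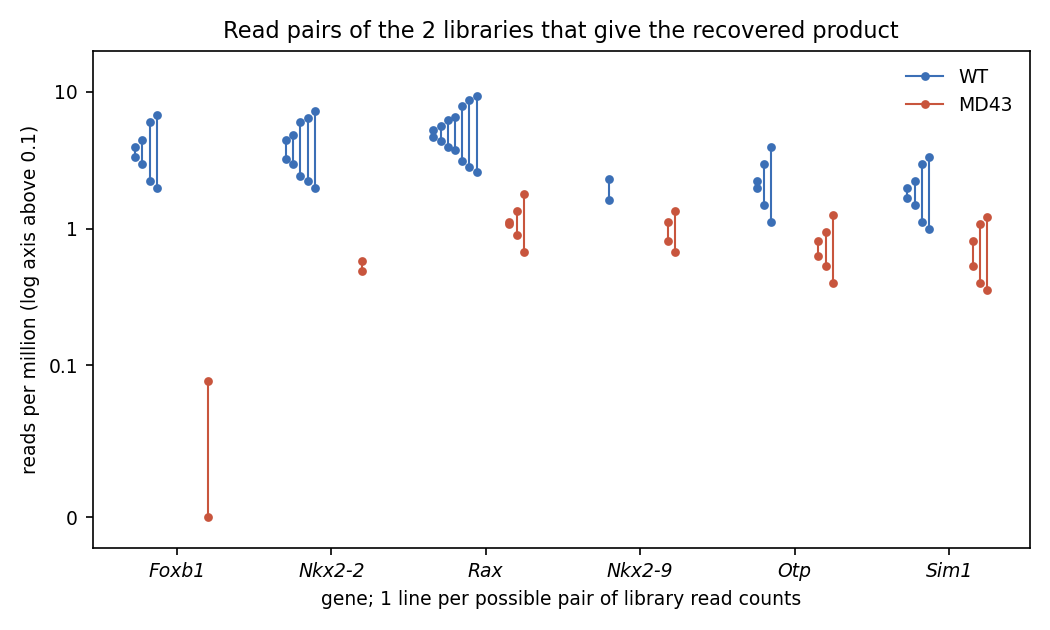
Possible read counts of the single libraries for 6 genes, scaled to the mean depth of the genotype as on the axis (log axis above 0.1, linear below). Each line joins the 2 libraries of 1 possible pair in WT (blue) or MD43 (red), and 1 of the pairs shown for a gene and genotype is the true one. The MD43 pairs of Foxb1, Nkx2-2 and Rax lie below all of their WT pairs, whereas some pairs of Otp and Sim1 overlap.

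Of the 8 members, 7 reached 10 reads in at least 1 genotype, Foxb1 by its WT reads alone, and Nkx2-4 did not. Among these 7 genes, 6 were lower in MD43 by 2-fold or more and 0 were higher by as much. Over all 15382 genes that reached 10 reads, the share past 2-fold was 2.48% for genes lower in MD43 and 1.64% for genes higher in MD43. Since the members were picked on this contrast, nothing is read from the comparison of the 2 shares. The median log2 difference was -1.57 for the 7 members and 0.005 for all 15382 genes. Low reads widen the spread of such differences, and among the 3872 genes with 10 to 100 reads as a mean of both genotypes the share past 2-fold was 6.22% for lower and 2.38% for higher genes. The members with so few reads were Nkx2-2, Nkx2-9, Rax, Otp and Sim1.

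**Figure D3:**
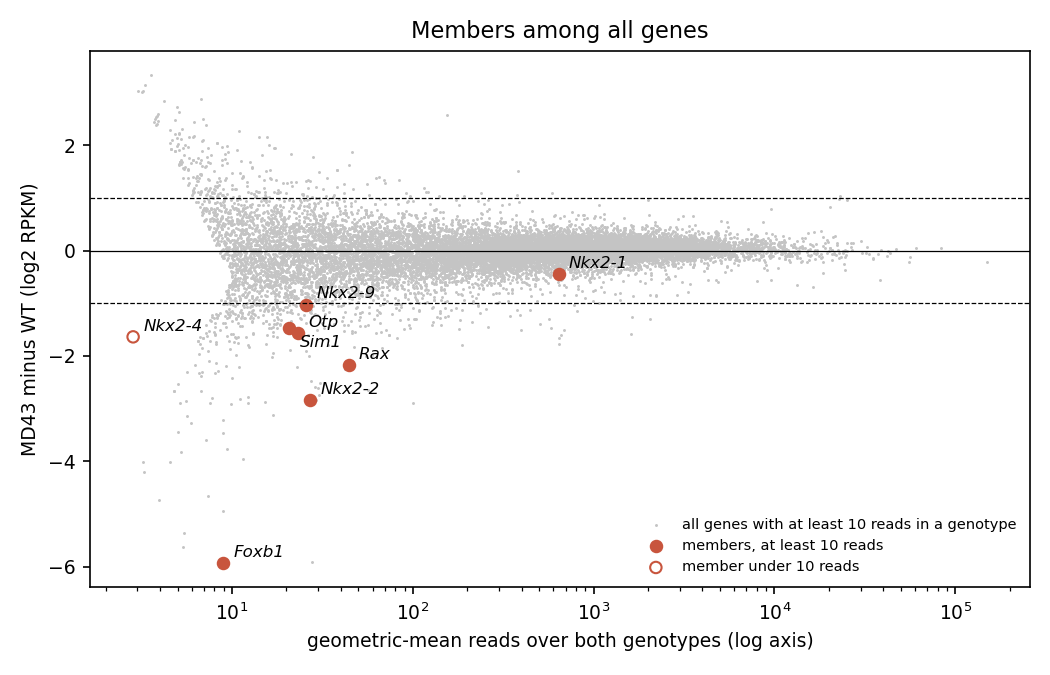
MD43 minus WT difference in log2 RPKM against the geometric mean of the reads of both genotypes (log axis) for all 15382 genes that reached 10 reads (grey) and for the members (red, open for Nkx2-4 with fewer than 10 reads). Dashed lines mark a 2-fold difference. The members lie below 0, Nkx2-1 within the dashed lines at 647 and 635 reads and the others on or below the lower line with fewer reads, and Foxb1 is drawn at its listed value of -5.93.

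The genes next to the members were then examined, because SMCHD1 acts on chromatin over long stretches. The table lists 23 other genes that overlap a member or lie within 100 kb of one, and 13 of them reached 10 reads in a genotype. The 7 protein-coding ones, with other roles, had log2 differences from -0.03 to 0.32 (median 0.12), and 0 were at least 2-fold lower. Xrn2, an exoribonuclease gene 5316 bp from Nkx2-4, differed by 0.02 (log2) at 4112 and 2909 reads. Tbca, which encodes a tubulin folding cofactor, lies 32680 bp from Otp and had a log2 difference of 0.12, and Wdr41, on the other side of Otp, had 0.13. Ascc3, a helicase gene near Sim1, had 0.13, and Lman1, a cargo receptor gene of the secretory pathway near Rax, had -0.03. On the far side of Nkx2-9, Pax9, a paired-box factor of the pharyngeal pouches and face, had 0.11 and Slc25a21, a mitochondrial carrier gene, had 0.32.

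The 6 non-coding neighbours with 10 reads had log2 differences from -4.73 to -0.68, and 4 of them were lower in MD43 by 2-fold or more, against 2.48% of all genes that reached 10 reads and 6.22% of those with 10 to 100 reads. Of these 4, B230323A14Rik, Nkx2-2os and Gm47720 reached 10 reads by WT alone, so nothing is read from this count. Overlapping genes on opposite strands can share reads, and strand use in the authors' counting is not given in the sources used here. Over 119 genes that lie almost wholly within exons of a gene on the other strand, the median density was 1.01 times that of the host gene (interquartile range 0.283 to 1.69), as it would be if both strands were counted together. Values of a member and its antisense partner are therefore not separate measurements where their exons overlap. B230323A14Rik (chr9:69758740-69830845, plus strand) shares 418 of its 2931 exon bases with Foxb1. It had no read in either MD43 library and 14 and 21 reads in WT, at least 7.95-fold lower against a limit of 3 reads per library. Nkx2-2os (chr2:147184083-147331681, plus strand) shares 278 of 4345 exon bases with Nkx2-2. It had 0 and 2 reads in MD43 and at least 31 in WT, 21.6-fold lower (exact 95% counting interval 5.48 to 186). Raxos1 (chr18:65937538-65940447, plus strand) shares 1604 of 2547 exon bases with Rax, and with 12 and 13 reads in MD43 and a mean of 41.4 in WT it differed by -2.21 (interval -2.85 to -1.56), close to the value of Rax.

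The neighbours of Nkx2-1 and Nkx2-9 that share no exon base with them had smaller differences. Sfta3-ps (chr12:56488321-56529427, minus strand), 2531 bp from Nkx2-1, had a log2 difference of -0.70 on 215 reads in MD43 and 252 in WT (interval -0.89 to -0.52). Gm38103, 913 bp from Nkx2-9, had -0.68 with an interval of -1.39 to 0.03 that includes 0. Gm47720 had -1.66 on 4.58 reads in MD43 and 10.4 in WT. The overlapping antisense genes Gm26973 at Nkx2-1 and 6430503K07Rik at Nkx2-2 share no exon base with the member either and stayed under 10 reads, with means of 5 in MD43 and 7.35 in WT for Gm26973 and a single pair of 1 and 3 WT reads against 0 in MD43 for 6430503K07Rik.

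**Figure D4:**
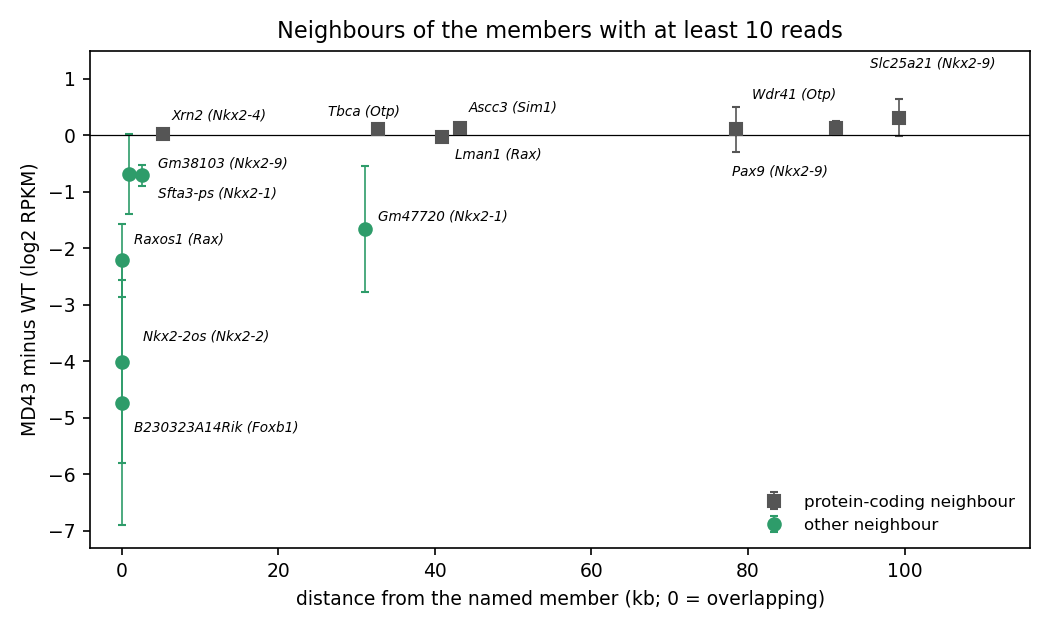
MD43 minus WT difference in log2 RPKM of the 13 neighbours with at least 10 reads, against the distance from the member named in brackets, with 0 for overlap. Squares are protein-coding genes, circles are other genes and bars are 95% counting intervals. The squares lie between -0.03 and 0.32, and the circles between -4.73 and -0.68. The 2 lowest circles are drawn at values for which a library with 0 reads was set to 0.9 reads.

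Other transcription factors of the hypothalamus and its surroundings were read as a list beside the members. Of 28 such genes in the table, 25 reached 10 reads. A difference of 2-fold or more was found for 7 of them, 6 lower and 1 higher in MD43, against 2.48% lower and 1.64% higher over all genes, and the median log2 difference was -0.28. Among genes with 10 to 100 reads as a mean of both genotypes, the shares were 6.22% lower and 2.38% higher. The list was written with earlier results of these data known, so these counts are a description. Of the genes past 2-fold, Bsx reached 10 reads by WT alone and Neurog3 by MD43 alone, so the filter favoured their direction. The LIM-homeodomain factors gave values in both directions. Lhx5, a factor of the mammillary region, was 2.18-fold lower in MD43 at 354 reads against 556 in WT. Lhx8 and Lhx6, which with Nkx2-1 belong to the ventral telencephalon and adjoining hypothalamus and also to the oral side of the facial primordia, were 3.95-fold lower (35.5 and 101 reads) and 2.93-fold lower (33.2 and 69.8 reads). Lhx1 was 2.04-fold lower on 33.8 and 49.6 reads. Lhx2, which is expressed widely in the forebrain, was 1.40-fold higher at 5088 reads in MD43 and 2612 in WT.

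Dbx1, a progenitor factor of the forebrain and spinal cord, was 2.64-fold lower in MD43 (68.7 and 131 reads), and Bsx, a factor of the arcuate nucleus, was 3.06-fold lower on 4.90 and 10.8 reads. The 1 gene at least 2-fold higher was the proneural factor Neurog3 at 14.1 and 4.58 reads, named after its value was seen. The rostral forebrain factors with the most reads were close between genotypes, with log2 differences of -0.17 for Fezf2, -0.33 for Fezf1 and -0.28 for Six3. In sum over the 28 genes, the level was 148 RPKM in MD43 and 155 RPKM in WT. The genes of this list that were at least 2-fold lower ranged from 4.90 to 354 reads in MD43.

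**Figure D5:**
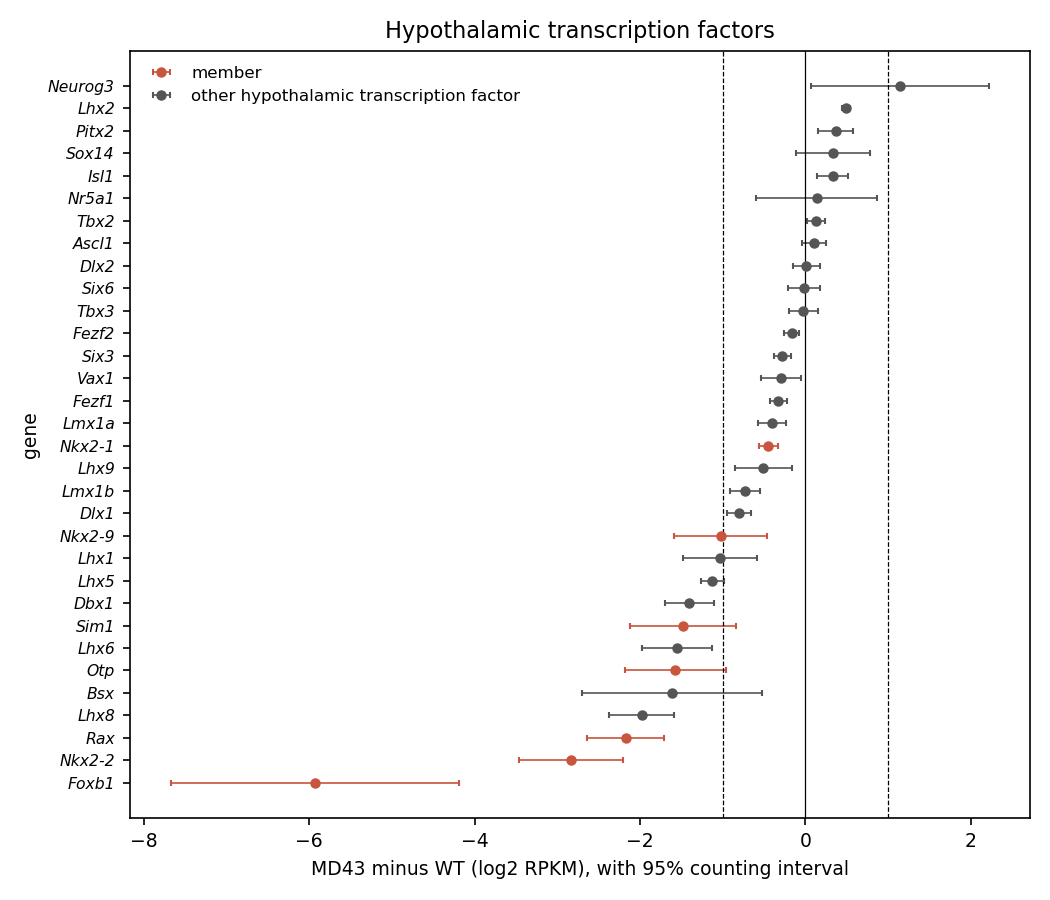
MD43 minus WT difference in log2 RPKM of the 7 members (red) and 25 other hypothalamic transcription factors (grey) with at least 10 reads in a genotype, with 95% counting intervals and dashed lines at a 2-fold difference. Of the red points 6 lie beyond the left dashed line, and of the grey points 6 lie beyond the left and 1 beyond the right line. Foxb1 is drawn at its listed value.

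The partners and later products of Otp and Sim1 mostly had few reads or none. Of 12 such genes, 4 reached 10 reads, and the hormone genes Avp, Crh, Oxt and Npy had no read in any library. The others stayed under 10 reads, with Trh and Sim2 lower and Sst and Ghrh higher in MD43. Arnt2, the dimerization partner of Sim1, had a log2 difference of 0.09 on 3025 and 2049 reads. Pou3f2, a POU factor that acts after Sim1 in the same neurons and widely elsewhere in the brain, was 2.83-fold lower at 277 and 563 reads. It was the 1 gene of this list past 2-fold, and 2.48% of all genes that reached 10 reads were lower by as much. Pomc and Agrp, which encode peptides of the arcuate nucleus, had differences of 0.37 and 0.15 on 63.6 and 15.7 reads in MD43.

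The Sonic hedgehog pathway, which induces several of the members in the ventral forebrain, was read in 14 genes, and all 14 reached 10 reads. The median log2 difference was -0.03, with 1 gene lower and 1 higher by 2-fold or more. Over all genes that reached 10 reads, these shares were 2.48% and 1.64%. Both genes past 2-fold were forkhead factors of the ventral midline and endoderm on few reads. Each of them reached 10 reads only in the genotype where it was higher, so nothing is read from this count. Foxa1 was 7.43-fold lower (5.29 reads in MD43 and 28.3 in WT), whereas Foxa2 was 3.35-fold higher (19.8 and 4.24 reads). The genes with the most reads gave 0.32 for the transcription factor Gli3, 0.16 for the signal transducer Smo, 0.17 for the co-receptor Cdon and -0.53 for Ptch1, the receptor that is itself a target of the pathway. The ligand Shh differed by -0.34 (299 and 273 reads) and the target Gli1 by -0.66 (602 and 683 reads), both named for their roles after their values were seen.

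Signals of the diencephalon and its neighbourhood gave 1 of 10 genes at least 2-fold lower and 0 higher, with a median of -0.15. Over all genes that reached 10 reads, these shares were 2.48% and 1.64%. The lower gene was Fgf15, 2.62-fold lower at 369 reads in MD43 and 695 in WT. Wnt8b, Bmp7 and Wnt5a, a Wnt ligand of the hypothalamic and cortical midline, a BMP ligand and a non-canonical Wnt ligand, had differences of 0.04, 0.28 and 0.21. Of 11 further NK and forkhead relatives of the members, 4 reached 10 reads and had a median of -0.22. Nkx6-1, which overlaps with Nkx2-2 in the ventral neural tube, was 15.5-fold lower on 3.46 reads in MD43 and 38.7 in WT, whereas Nkx6-2 differed by -0.08 on 102 and 77.2 reads. Nkx2-3 differed by 0.09. Nkx1-1, Nkx2-5 and Nkx6-3 had no read in any library.

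Marker genes show which tissues the dissected pieces held. Frontonasal mesenchyme was present in both genotypes, with all 12 markers at 374 reads or more and a sum of 189 RPKM in MD43 and 192 RPKM in WT. The median difference of these markers was -0.14, and Msx1, Alx4, Prrx1 and Tfap2b, with the most reads, ranged from -0.29 to 0.02. Forebrain tissue was present too. The 8 telencephalon markers, among them Nr2e1, Emx2 and Otx1, summed to 151 RPKM in MD43 and 134 RPKM in WT, with 7 of 8 higher in MD43 and a median of 0.16. The 6 young neuron markers in the table, among them Tubb3 and Map2, summed to 100.1 and 103.1 RPKM, with a median of -0.21. Of the 9 posterior neural markers (8 Hox genes and Egr2), 0 reached 10 reads, and their sum was 0.306 RPKM in MD43 and 0.292 RPKM in WT. Posterior neural tissue also expresses Nkx2-2, Nkx2-9, Otp and Foxb1, and its part in their values was not tested.

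Markers of the tissues nearest to the hypothalamus were in part lower in MD43 as well. Of the optic vesicle markers, 5 of 7 reached 10 reads and all 5 were lower in MD43, with a median of -1.01 and sums of 9.44 RPKM in MD43 and 13.1 RPKM in WT. Pax2 and Mitf were 2.30-fold and 2.01-fold lower, and Pax6, with by far the most reads, was 1.27-fold lower. Of the thalamus and prethalamus markers, 6 of 8 reached 10 reads, 4 of them lower, with a median of -0.39 and sums of 23.4 and 33.3 RPKM. Within this list Barhl2 differed by -5.91 (log2, 4.24 and 183 reads) and Olig3 was at least 14.9-fold lower against 3 reads per library (0 reads in MD43 and 32.1 in WT), whereas Olig2, Pax3, Irx3 and Tal2 lay between -0.60 and 0.20. The part of these tissues in the lower values of the members was not tested.

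Markers of some other tissues had higher values in MD43. All 8 surface ectoderm markers were higher in MD43, from 0.23 for Trp63 to 0.87 for Cldn6, with a median of 0.65 and sums of 188 RPKM in MD43 and 120 RPKM in WT. All 4 red blood cell markers in the table were higher, with a median of 0.82 and sums of 5807 and 3055 RPKM, and Hbb-bh1, an embryonic globin gene, was 2.06-fold higher. The pharyngeal endoderm, thyroid and lung list bears on Nkx2-1, which these organs also express. Its markers Hhex and Sftpc had no read in any library, whereas its marker Tg had 2.68 reads in MD43 and 2.12 in WT. The sum of the list was 2.30 RPKM in MD43 and 1.22 RPKM in WT. The higher sum in MD43 came from Foxe1 alone, at 1.67 RPKM in MD43 and 0.455 RPKM in WT. The part of these tissues in the value of Nkx2-1 was not tested. In that list Foxe1, which the oral and nasal epithelium also expresses, was 3.67-fold higher (104 and 20.5 reads), Pax8 was 7.38-fold lower (3.29 and 17.4 reads) and Pax9 differed by 0.11. The part of the surface ectoderm and blood content in the members' values was not tested either.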

How the data were processed

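FNPs were dissected by the study along the border with the maxillary prominence, and 1 library was sequenced per embryo (2 WT and 2 MD43). Reads were trimmed by the authors with Trim Galore (version 0.4.4) and mapped with HISAT2 (version 2.0.5) to GRCm38, per the submitters' processing notes, and counted with the RNA quantitation of SeqMonk. The deposited values are log2 RPKM, 1 merged column for each genotype, without sex chromosomes. The deposited fold change, mean and FDR columns hold the authors' own comparison and were not used.

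The table was joined to GENCODE M21 models (33101 of 33708 rows). The log2 RPKM corrected for exon length, relative to genes without reads, gave the product of the reads of both libraries, a library without reads standing as 0.9. Of products from 100 to 100000, 99.8% in MD43 and 99.8% in WT were whole within 0.1. Counting intervals came from the geometric-mean reads. In genes whose product allows a single pair, the larger library had a median of 1.52 times the reads of the smaller in MD43 and 1.40 times in WT, and library depths were taken as equal or unequal by this ratio in either order when pairs were compared. Counts of genes were made over those that reached 10 reads in either genotype. No test between genotypes was run, because each has 1 value.

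All members are named. From each list the genes at least 2-fold apart (up to 6, by WT reads) and up to 4 with the most WT reads are named, and neighbours with 10 reads or overlapping a member. Exceptions are stated where they occur. The values of 3 genes that this rule names are not reported here. Members and lists were chosen with earlier results of these data known, and the read pairs and the range of 10 to 100 reads were added after the data were seen. Recovery was tested on simulated data. Alternatives were pseudocounts of 0.1 and 1 RPKM, centring, a limit of 3 reads, other fold limits and other filters. Analyses used Python 3.11.15, numpy 2.4.6, pandas 2.3.3 and scipy 1.17.1, and figures matplotlib 3.10.9.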

Additional observations from a re-analysis of the deposited data

How the results depend on the processing

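Of 32 alternative values of single members, 25 stayed within the 95% counting interval of the value reported and 0 changed direction. The other 7 were closer to 0, with a pseudocount of 1 RPKM for Nkx2-2 (-0.97), Rax (-0.64), Otp (-0.48), Sim1 (-0.17) and Foxb1 (-1.13) and with 0.1 RPKM for Sim1 (-0.82) and Foxb1 (-3.47), since these pseudocounts are near or above the level of the genes. The number of members at least 2-fold lower, 6 of 7, was 3 with at least 50 reads in a genotype, 3 with a fold limit of 4 and 1 with a pseudocount of 1 RPKM. It was 7 without a filter and 6 with a fold limit of 1.5 or with centring on the median of all genes, a shift of 0.005. The median of the members was -0.53 with a pseudocount of 1 RPKM. Among the other hypothalamic factors the number at least 2-fold lower was 8 with a fold limit of 1.5, 7 without a filter and 4 with at least 50 reads, and the median ranged from -0.31 to -0.16. No paired analysis was possible because single libraries have no values of their own in the merged table, and for the same reason no library could be left out in turn. Depth limits Nkx2-4 and the MD43 value of Foxb1 most.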
